A study of Mus musculus with 8 samples.

Results

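The genes described here handle iron inside the cell or set how easily its membranes undergo ferroptosis, a form of cell death driven by iron-dependent lipid peroxidation. They are 10 named genes of 19938 genes with a single symbol on the array: Tfrc and Slc11a2, which bring iron in, Slc40a1 and Hamp, which govern its export, Fth1, Ftl1 and Ncoa4, which store and release it, Ireb2 and Aco1, which sense it, and Acsl4, which makes membranes prone to peroxidation. All 10 were found, each by its probe set of highest mean level among those with 1 gene symbol. The samples were myocardium of male CH3 mice, 8 to 10 weeks old and weighing 25 to 30 g. All had the left anterior descending coronary artery (LAD) tied for 45 minutes and then reopened for 2 hours, after which the heart was removed. The placebo group (4 arrays) had received phosphate-buffered saline 1 hour before the ligation, and the DJ-1 group (4 arrays) had received recombinant DJ-1, a small redox-sensitive protein, at the same time. Neither uninjured hearts nor other times of reperfusion were analysed here, so every value refers to reperfused tissue with or without the protein.

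Cells take up iron bound to transferrin through the transferrin receptor and keep the surplus in ferritin, a shell of heavy and light chains. The iron regulatory proteins bind stem-loops in messenger RNAs when iron is scarce, which stabilises the transferrin receptor message and blocks translation of ferritin and ferroportin. The translational part of this control does not show in messenger RNA levels. In heart muscle, iron released during ischaemia and reperfusion is known as a source of oxygen radicals, and ferroptosis is one of the ways in which cardiomyocytes die in that setting.

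The promoter windows of RefSeq (GRCm38.p6; 250 bases before to 50 after each annotated start) held 8 of the 10 genes in 12 windows. Slc40a1 and Slc11a2 were not among them. Because these hearts had gone through ischaemia and those of the DJ-1 group had received a redox-sensitive protein, the windows were searched on both strands for ACGTG, the core of the hypoxia response element, and for TGACNNNGC, the core of the antioxidant response element. ACGTG was present in 4 of the 12 windows, 2 of Tfrc and 2 of Ncoa4, and in 19.6% of all 32851 windows. TGACNNNGC was present in 1 of the 12, a window of Ncoa4, and in 12.4% of all windows, and it did not overlap ACGTG there. The sites are shown 5′ to 3′ on the gene's strand, the plus strand for both genes, with the matched letters in capitals, and the third is a match on the opposite strand. The Tfrc site lies in both Tfrc windows.
Tfrc, chr16:32608884-32608908: cggtaggtgtACGTGcggaaggaag
Ncoa4, chr14:32165711-32165735: ggggagggagACGTGacgcgcgcaa
Ncoa4, chr14:32159806-32159830: tgcatgcctcCACGTtgagctctaa
Ncoa4, chr14:32165735-32165763: aggcggggcgTGACCTGGCcggtagggta
A match describes letters only, and binding was not measured.

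The values are log2 expression levels, so a difference of 1 is a doubling. Array medians lay between 5.25 and 5.35. The highest were those of DJ-1 replicates 3 and 4, at 5.34 and 5.35, and placebo replicate 3 came next at 5.29. Correlations between arrays over the tested genes ran from 0.986 to 0.994. The number of arrays limits the precision: the median standard error (SE) of a difference over all genes was 0.12. All 12 ventricular cardiomyocyte markers stood above the background, set at 4.74 as the 95th percentile of olfactory receptor genes, a family that myocardium scarcely expresses. On the first principal component DJ-1 replicates 3 and 4 stood at 19.6 and 23.5 and the other arrays between -15 and 5.31.

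None of the 10 genes (0) passed an adjusted p of 0.05 in limma's moderated comparison of DJ-1 with placebo hearts. Over all 19938 genes the count was also 0 (0%). At an unadjusted p under 0.05 the count was 0 of 10, against 1194 (5.99%) of all genes. The 2 groups overlapped for every one of the 10, whereas they did not overlap for 3.22% of all genes (1.54% with DJ-1 higher and 1.68% with DJ-1 lower). The mean was higher in DJ-1 hearts for 5 of the 10 and lower for 5, against 52.5% higher over all genes, and the median difference was -0.044 against 0.008. The largest differences were those of Slc40a1, at 0.26, and Slc11a2, at -0.16. Adjusted p ran from 0.824 to 0.999 over the 10 genes.

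**Figure D1:**
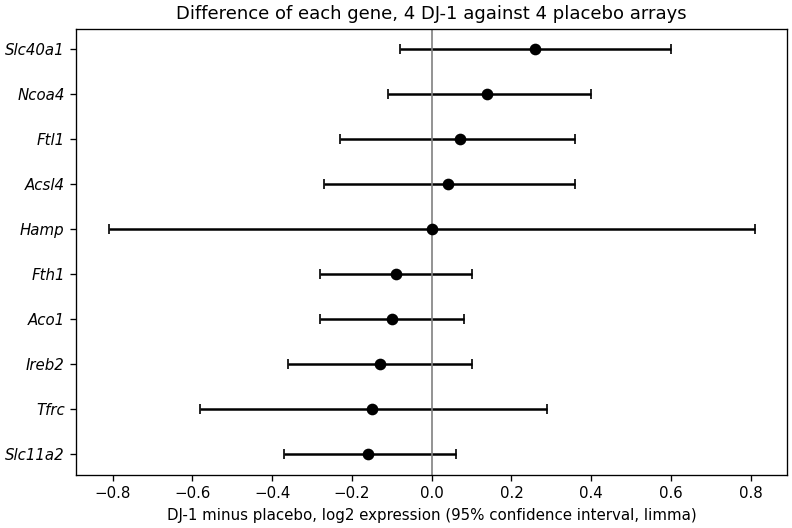
Difference of each of the 10 genes between 4 DJ-1 and 4 placebo arrays on the log2 scale, with points for the estimate and bars for the 95% confidence interval of the limma fit. Every interval spans 0, from the narrow one of Aco1 (-0.28 to 0.08) to the wide one of Hamp (-0.81 to 0.81).

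Among the genes of iron entry, Tfrc encodes the transferrin receptor, through which most cells take up transferrin-bound iron. Its log2 level was 8.59, 8.63, 8.19 and 8.80 on the placebo arrays, in order of replicate number, and 7.89, 8.42, 8.35 and 8.95 on the DJ-1 arrays. The DJ-1 group thus held both the lowest and the highest of the 8 values. The difference was -0.15 (SE 0.20, 95% confidence interval -0.58 to 0.29; adjusted p = 0.912), which is 0.903 times the placebo level with an interval of 0.667 to 1.22 times. Its sign rested on 1 array: without DJ-1 replicate 1 the difference was 0.02. With replicates 1 and 2 of both groups it was -0.45 (unadjusted p = 0.0444, adjusted p = 1), and with replicates 3 and 4 it was 0.16.

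Slc11a2 encodes DMT1, the transporter that moves ferrous iron out of the endosome into the cytosol. Its level was 7.33, 7.06, 6.99 and 7.07 on the placebo arrays, in order of replicate number, and 6.97, 6.99, 6.88 and 6.98 on the DJ-1 arrays. The DJ-1 values lay close together, and 3 of the 4 were below every placebo array, while DJ-1 replicate 2 met placebo replicate 3 at the lower edge of the placebo range. The difference of -0.16 (SE 0.10, 95% confidence interval -0.37 to 0.06; adjusted p = 0.83) did not pass. Placebo replicate 1 was the highest array, and without it the difference was -0.08.

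Slc40a1 encodes ferroportin, the known exporter of cellular iron, which in the heart is found in cardiomyocytes and in macrophages. Its level was 7.60, 7.71, 7.21 and 7.27 on the placebo arrays, in order of replicate number, and 7.87, 8.00, 7.49 and 7.48 on the DJ-1 arrays. In both groups the first pair of arrays was higher than the second pair, and the upper 2 placebo arrays overlapped the lower 2 DJ-1 arrays. The difference of 0.26 (SE 0.15, 95% confidence interval -0.08 to 0.60; adjusted p = 0.824) corresponds to 1.2 times the placebo level, with an interval of 0.949 to 1.51. It was the largest of the 10 and did not pass. It was 0.28 in replicates 1 and 2 and 0.24 in replicates 3 and 4. With DJ-1 replicate 2 left out it was 0.16. With DJ-1 replicates 3 and 4 left out it was 0.49 (unadjusted p = 0.0129, adjusted p = 0.987), a setting that keeps the low placebo arrays.

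Hamp encodes hepcidin, the peptide hormone that binds ferroportin and leads to its degradation, and the liver is its main source. In these hearts its mean was 3.33 in both groups, below the background of 4.74, so its values lie in the range of the olfactory receptor genes. They were 3.77, 3.99, 2.86 and 2.71 on the placebo arrays, in order of replicate number, and 3.33, 4.39, 2.93 and 2.69 on the DJ-1 arrays. The spread within groups was wider than for 99.7% of all genes, and the highest array was DJ-1 replicate 2. The difference was 0.00 (SE 0.37, 95% confidence interval -0.81 to 0.81; adjusted p = 0.999), and its sign changed with the scaling: -0.04 with quantile normalization, -0.06 with cyclic loess and -0.0024 after centring arrays on their medians. It was -0.35 without DJ-1 replicate 2. The closely related Hamp2, named after its values were seen, had placebo values of 6.24 ± 0.16 and DJ-1 values of 6.16 ± 0.20 (SD, n = 4 each), and a difference of -0.07 (SE 0.12). Of 10 hepatocyte markers, 8 stood at background, among them Alb, Apob and Ttr.

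**Figure D2:**
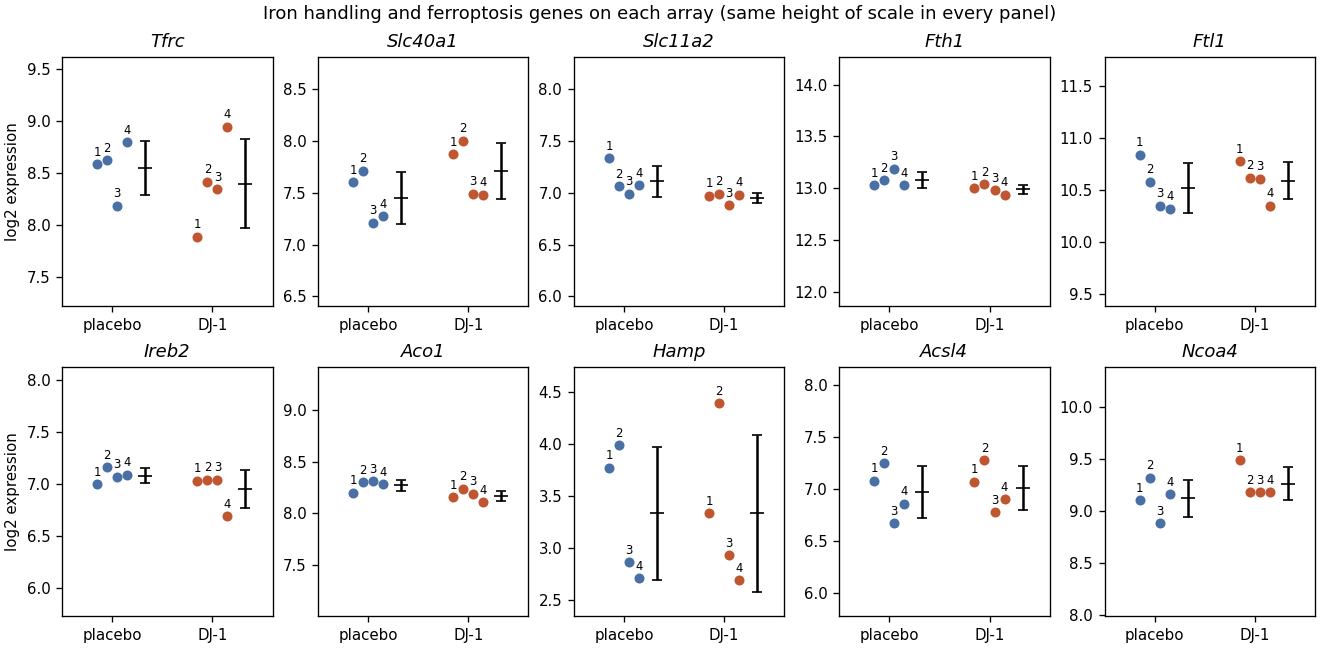
Level of each of the 10 genes on every array as log2 expression, with placebo arrays in blue, DJ-1 arrays in orange, the replicate number above each point and the group mean with its SD at the right of each group. All panels span the same height of the log2 scale, so the tight values of Fth1 and Aco1 and the wide ones of Hamp and Tfrc can be compared.

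Of the ferritin genes, Fth1 encodes the heavy chain, which oxidises ferrous iron for storage. Its level was 13.03, 13.08, 13.19 and 13.03 on the placebo arrays, in order of replicate number, and 13.00, 13.04, 12.98 and 12.94 on the DJ-1 arrays. The whole range over 8 arrays was 0.25, and 2.02% of all genes had a smaller spread within groups. DJ-1 replicate 2 lay just above the lowest placebo arrays. The difference of -0.09 (SE 0.09, 95% confidence interval -0.28 to 0.10; adjusted p = 0.873) did not pass, and its interval runs from 0.826 to 1.07 times the placebo level.

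Ftl1 encodes the light chain, which helps the iron core to form. Its level was 10.84, 10.58, 10.35 and 10.32 on the placebo arrays, in order of replicate number, and 10.78, 10.62, 10.61 and 10.35 on the DJ-1 arrays. Replicate 1 was the highest array of each group and replicate 4 the lowest, and the groups overlapped almost fully. The difference was 0.07 (SE 0.13, 95% confidence interval -0.23 to 0.36; adjusted p = 0.947), and without placebo replicate 4 it was -0.0027. Ferritin light chain has near-identical copies in the mouse genome, so probes for it can pick up more than 1 locus.

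Ncoa4 encodes the receptor that carries ferritin to the lysosome, where the stored iron is set free. Its level was 9.10, 9.32, 8.88 and 9.16 on the placebo arrays, in order of replicate number, and 9.49, 9.18, 9.18 and 9.18 on the DJ-1 arrays. DJ-1 replicate 1 stood above the other 3 DJ-1 arrays, which agreed to within the second decimal and lay inside the placebo range. The difference of 0.14 (SE 0.12, 95% confidence interval -0.11 to 0.40; adjusted p = 0.863) did not pass, and leaving out DJ-1 replicate 1 or placebo replicate 3 gave 0.07 each. The other probe set of Ncoa4 gave 0.15.

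Ireb2 and Aco1 encode the iron regulatory proteins IRP2 and IRP1. IRP2 is degraded when iron is plentiful, and IRP1 then takes up an iron-sulphur cluster and acts as cytosolic aconitase. Ireb2 was at 7.00, 7.16, 7.07 and 7.09 on the placebo arrays, in order of replicate number, and 7.03, 7.04, 7.04 and 6.69 on the DJ-1 arrays. DJ-1 replicate 4 was the lowest array by a wide margin, and the other 3 DJ-1 arrays lay inside the placebo range. The difference was -0.13 (SE 0.10, 95% confidence interval -0.36 to 0.10; adjusted p = 0.856), and it was -0.04 without DJ-1 replicate 4.

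Aco1 was at 8.20, 8.30, 8.31 and 8.28 on the placebo arrays, in order of replicate number, and 8.16, 8.24, 8.19 and 8.11 on the DJ-1 arrays. Only DJ-1 replicate 2 reached into the placebo range, above placebo replicate 1. Its spread within groups was smaller than that of nearly all genes, with 0.792% of genes below it. The difference was -0.10 (SE 0.08, 95% confidence interval -0.28 to 0.08; adjusted p = 0.864). The fit takes part of its variance from other genes, and without that moderation the unadjusted p of Aco1 was 0.0322 and the adjusted p 0.865.

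Acsl4 encodes an acyl-CoA synthetase that loads arachidonate and similar polyunsaturated fatty acids into membrane lipids, the substrates of ferroptotic peroxidation. Its level was 7.08, 7.25, 6.67 and 6.86 on the placebo arrays, in order of replicate number, and 7.07, 7.28, 6.78 and 6.90 on the DJ-1 arrays. The sets of values covered nearly the same range, with replicate 2 highest and replicate 3 lowest in each group. The difference was 0.04 (SE 0.14, 95% confidence interval -0.27 to 0.36; adjusted p = 0.967). Its sign turned without placebo replicate 3 (-0.06) and without DJ-1 replicate 2 (-0.05).

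The arrays differed more within the groups than the groups differed for several of these genes. In placebo hearts the mean of replicates 1 and 2 exceeded that of replicates 3 and 4 by 0.42 for Slc40a1, 0.40 for Acsl4, 0.38 for Ftl1 and 1.10 for Hamp. In DJ-1 hearts the same gaps were 0.45, 0.33, 0.22 and 1.06 for these genes, which were picked out after their values were seen. Hamp lay below the background of 4.74 on every array. For Tfrc the gap was 0.12 among placebo arrays and -0.49 among DJ-1 arrays. For Fth1 it was -0.05 and 0.06, and for Aco1 it was -0.04 and 0.05, in the same order. The labels give no reason for a split of the replicate numbers, and no test was made of it.

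Markers of neutrophils, the leukocytes that arrive first in reperfused tissue, were also higher in replicates 1 and 2 of each group than in replicates 3 and 4. Their mean was highest in replicate 2 of each group, whereas Ftl1 was highest in replicate 1. The mean log2 level of 15 neutrophil markers was 5.68, 6.58, 5.38 and 4.67 on the placebo arrays, in order of replicate number, and 6.59, 6.78, 5.87 and 5.55 on the DJ-1 arrays. For all 15 the DJ-1 mean exceeded the placebo mean, with 2 higher at an unadjusted p under 0.05 (3.63% of all genes) and 0 past an adjusted p of 0.05, and Ltf, Mpo and Padi4 stood at background. Ltf, the lactoferrin gene, had the smallest p of the list, with a difference of 0.35 (SE 0.14). Their part in the values of Slc40a1, Acsl4, Ftl1 and Hamp was not tested. In tissue samples of this kind fewer cells of a type and less RNA per cell cannot be told apart.

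**Figure D3:**
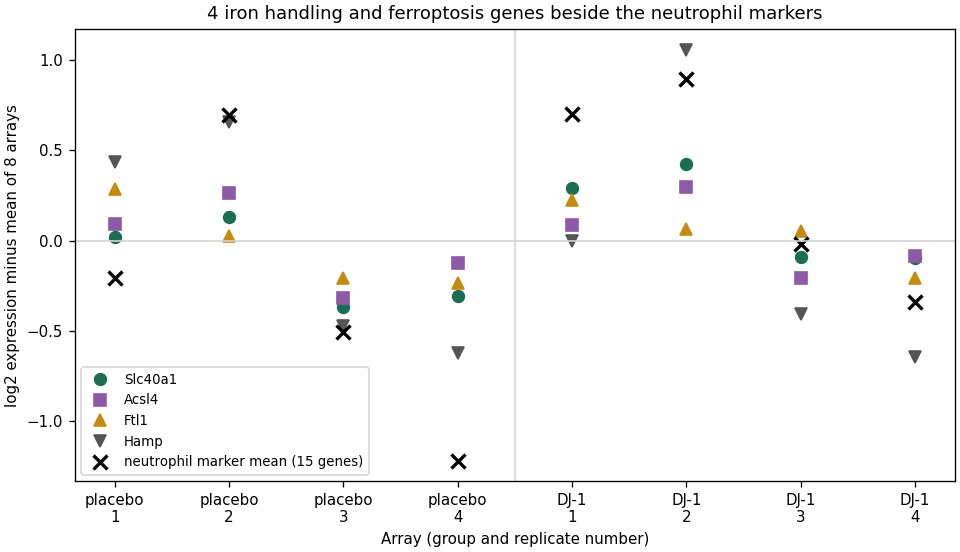
Slc40a1, Acsl4, Ftl1, Hamp and the mean of 15 neutrophil markers on each array, as log2 expression minus the mean of the 8 arrays. In both groups the points of replicates 1 and 2 lie mostly above those of replicates 3 and 4, and the neutrophil mean spans the widest range, from 4.67 to 6.78 before centring. Hamp was below background on every array.

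The other marker lists covered cells that carry or recycle iron. Macrophage markers spanned 6.47 to 6.78 on placebo and 6.51 to 6.82 on DJ-1 arrays, with 7 of 15 higher, Ccr2 and Spic at background, and Fcgr1 at a difference of 0.22 (SE 0.11). The mean of the erythroid markers spanned 5.13 to 5.34 on placebo and 5.38 to 5.67 on DJ-1 arrays, without overlap. As a single gene, 1 erythroid marker had no overlap, with DJ-1 higher (1.54% of all genes). How often list means fail to overlap was not examined. Only 7 of the 13 listed erythroid markers were measured. Of these, 6 had a higher DJ-1 mean, with 3 higher at an unadjusted p under 0.05 (3.63% of all genes). Of the 7, Epb42, Gata1 and Rhag stood at background. Slc4a1, which encodes band 3 of the red cell membrane, led that list with 0.59 (SE 0.16; adjusted p = 0.824). The part of these cells in the values of the 10 genes was not tested.

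In the heart's own cells, ventricular cardiomyocyte markers had means of 12.46 to 12.64 on placebo and 12.38 to 12.56 on DJ-1 arrays, with 10 of 12 lower and Ttn at a difference of -0.31. Fibroblast markers ranged from 8.62 to 8.82 and from 8.51 to 8.65, with 9 of 10 lower (Gsn, -0.21, SE 0.08). Endothelial markers ranged from 9.27 to 9.43 and from 9.17 to 9.34, with 7 of 10 lower (Kdr, -0.48, SE 0.16). Smooth muscle and pericyte markers ranged from 8.87 to 9.02 and from 8.72 to 8.85 without overlap, with 8 of 9 lower (Kcnj8, -0.44, SE 0.13). As single genes, 2 of these 9 had no overlap with DJ-1 lower (1.68% of all genes). Over all genes 9468 of 19938 were lower. The list means of atrial, lymphocyte and hepatocyte markers differed by 0.02, -0.08 and 0.06, with members in both directions. Of 5 atrial markers 3 were higher (differences from -0.32 to 0.28), of 10 lymphocyte markers 4 (-0.44 to 0.21) and of 10 hepatocyte markers 7 (-0.26 to 0.36). The smallest p in these lists were those of Bmp10 (0.28) and Fga (0.36), both at background, and of Cd79a (-0.44). At an unadjusted p under 0.05, 2 fibroblast and 2 smooth muscle and pericyte markers were lower. So were 1 endothelial and 1 lymphocyte marker, against 2.36% of all genes lower. Of the hepatocyte markers 1 was higher (3.63% of all genes), and the ventricular and atrial lists had 0. None of these genes passed an adjusted p of 0.05.

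Beyond the 10 genes, 37 of 39 listed genes of iron handling were measured, and 0 passed an adjusted p of 0.05. At an unadjusted p under 0.05 there were 2 higher (3.63% of all genes) and 0 lower (2.36% of all genes), and the median difference was 0.009 against 0.008 over all genes. The 2 were Tfr2, a receptor that senses transferrin, with 0.33 (SE 0.13; adjusted p = 0.824) at a level below background, and Lcn2. Lcn2 encodes lipocalin 2, which binds iron-carrying siderophores. It is also one of the neutrophil markers above, and its level was 9.02, 9.16, 8.02 and 7.05 on the placebo arrays, in order of replicate number, and 9.95, 10.21, 8.26 and 9.12 on the DJ-1 arrays. Its difference of 1.07 (SE 0.49, 95% confidence interval 0.01 to 2.14; adjusted p = 0.824) came with overlapping groups.

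Hfe, whose product takes part in hepcidin control, was the listed gene without overlap between the groups. It was at 6.78, 6.58, 6.75 and 6.67 on the placebo arrays, in order of replicate number, and 6.50, 6.55, 6.45 and 6.55 on the DJ-1 arrays. All DJ-1 arrays were lower, while groups with DJ-1 lower and no overlap made up 1.68% of all genes, and the difference was -0.18 (SE 0.09; adjusted p = 0.824). Trf, which encodes transferrin, had -0.29 (SE 0.16), and Slc25a37, the mitochondrial iron importer mitoferrin 1 that is prominent in erythroid cells, had 0.35 (SE 0.22). Hmox1, the haem oxygenase that frees iron from haem, was named after its values were seen: it was at 9.92, 8.89, 7.85 and 7.54 on the placebo arrays, in order of replicate number, and 9.79, 9.80, 8.70 and 8.87 on the DJ-1 arrays. Its highest array was a placebo heart, its lowest 2 were placebo hearts as well, and the difference of 0.74 (SE 0.45; adjusted p = 0.824) had an interval of -0.25 to 1.73.

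Of 30 listed ferroptosis genes 27 were measured, and 0 passed an adjusted p of 0.05. At an unadjusted p under 0.05 there were 0 higher (3.63% of all genes) and 2 lower (2.36% of all genes), and the median difference was 0.044 against 0.008 over all genes. Alox12, a lipoxygenase that oxidises arachidonate, was at 5.70, 5.94, 5.56 and 6.17 on the placebo arrays, in order of replicate number, and 5.49, 5.60, 5.43 and 5.34 on the DJ-1 arrays. The groups met at DJ-1 replicate 2 and placebo replicate 3, and the difference was -0.38 (SE 0.13, 95% confidence interval -0.67 to -0.09; adjusted p = 0.824). Mboat2, which places monounsaturated fatty acids into phospholipids, had -0.27 (SE 0.12). Slc3a2, the heavy chain of the cystine importer, had 0.23 (SE 0.11), Scd1, a desaturase that makes monounsaturated fatty acids, -0.19 (SE 0.09), and the glutathione synthetase gene Gss -0.19 (SE 0.10), each with an adjusted p of 0.824.

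Other ferroptosis genes were named for their roles after their values were seen. Gpx4, the peroxidase that reduces lipid hydroperoxides and holds ferroptosis back, had placebo values of 10.49 ± 0.12 and DJ-1 values of 10.34 ± 0.14 (SD, n = 4 each), a difference of -0.15 (SE 0.10; adjusted p = 0.837). Slc7a11, the light chain of the cystine importer, spanned 3.49 to 5.62 on placebo and 3.80 to 7.07 on DJ-1 arrays. In replicates 3 and 4 of both groups it lay below the background of 4.74, and its placebo mean was 4.59. Its highest array was DJ-1 replicate 2, and its difference of 0.69 (SE 0.66; adjusted p = 0.874) had an interval of -0.75 to 2.12. Ptgs2 and Chac1, often read as transcripts that rise in ferroptosis, had differences of 0.04 (SE 0.22) and 0.07 (SE 0.23).

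**Figure D4:**
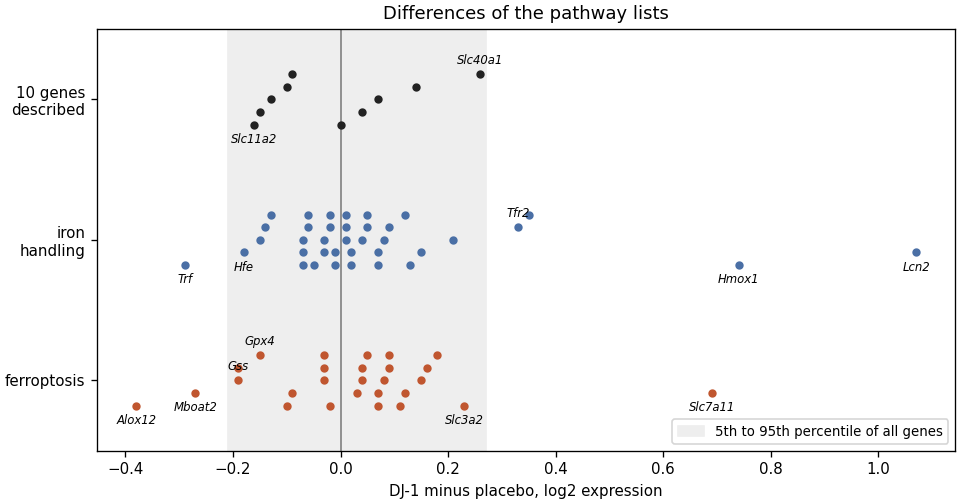
Differences between DJ-1 and placebo hearts on the log2 scale, as 1 point per gene, for the 10 genes described, 37 further iron handling genes and 27 further ferroptosis genes; the height of a point within its row has no meaning. The grey band runs from the 5th to the 95th percentile of all genes (-0.21 to 0.27) and holds all of the 10 genes. Lcn2, Hmox1 and Slc7a11 lie far to its right with overlapping groups, and Tfr2 (0.33) and Slc25a37 (0.35) lie nearer on that side. Alox12 (-0.38), Trf (-0.29) and Mboat2 (-0.27) lie to its left.

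As a description of likeness, genes above background were ranked by Pearson's correlation with Tfrc and with Fth1 over the 8 arrays after each group was centred on its mean. No p is given, because the leaders of 13692 genes are picked for high values. Tfrc was followed most closely by Rab44, Dlgap2 and Sertad1, with r of 0.952, 0.946 and 0.943 (rho 0.83, 0.90 and 0.86). Fth1 was followed most closely by Trim32, Immp1l and Brms1, with r of 0.959, 0.956 and 0.953 (rho 0.98, 0.98 and 0.81). Values of r above 0.9 were reached by 20 genes for Tfrc and 25 for Fth1.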

How the data were processed

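Labelled cDNA of 8 myocardial samples was hybridised to Affymetrix whole-transcript arrays, 1 array per sample, from RNA with an integrity number above 7, per the labels' protocols. The authors deposited log2 values of 35556 probe sets, made with RMA, per the submitters' processing notes; for its version, software and build the sources used here give nothing. They were used as deposited. A gene was named from the platform annotation where a probe set had 1 symbol (21789 probe sets; 1621 had several, 12146 none), and its probe set of highest mean was taken. Limma 3.58.1 in R 4.3.3 (lmFit, eBayes, two-sided, no covariate) compared the groups, with Benjamini-Hochberg adjustment over 19938 genes, and was tested on simulated data. Differences are DJ-1 minus placebo. The labels do not say outright that samples are separate mice, so p-values measure the spread between these samples, which may be technical. Sample codes run through placebo and then DJ-1, so any processing order and treatment cannot be told apart. The same replicate numbers occur in both groups. Deviations of same-numbered arrays correlated at 0.00, 0.17, 0.18 and 0.01, and those of differently numbered arrays at -0.28 to 0.29. With these ranges the correlations cannot decide whether the numbers mark pairs. The main fit left pairs out, and a replicate block was run as an alternative.

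The 10 genes and the lists were chosen with earlier results of these data known. The rule for named genes took the 10 genes, the 5 of smallest p in each pathway list, the smallest p in each marker list and 3 genes most like Tfrc and Fth1. Predicted, olfactory and small RNA genes were not named by this rule. Alternatives covered scaling, a filter on dim genes, probe sets, variance models, a replicate block and arrays left out.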

Additional observations from a re-analysis of the deposited data

Results flagged for a closer look

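Single arrays far from the others of their group were sought among 92 groups of 4 arrays, and 5 were found, where chance gives about 1 in 20. Among the 10 genes there were 2 of 20 such groups. Ireb2 was at 6.69 in DJ-1 replicate 4 and at 7.03 to 7.04 in the other DJ-1 arrays. Ncoa4 was at 9.49 in DJ-1 replicate 1 and at 9.18 in the other DJ-1 arrays. Scd1 was at 7.59 in DJ-1 replicate 1 and at 7.74 to 7.77 in the others. The mean of the atrial markers was 7.27 in placebo replicate 2 against 6.39 to 6.54, and that of the smooth muscle and pericyte markers 9.02 in placebo replicate 4 against 8.87 to 8.89.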

How the results depend on the processing

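Over 199 combinations of the 10 genes and an alternative, 186 kept the direction and 13 turned it, and the smallest adjusted p was 0.625, so none of the 10 passed in any of them. Slc40a1, Slc11a2, Fth1, Ireb2, Aco1 and Ncoa4 kept their direction in every alternative run. The differences that turned, besides those from leaving out 1 array, were Tfrc in replicates 3 and 4 only, an alternative chosen after seeing the data (0.16), Ftl1 in replicates 1 and 2 only (-0.01), and Hamp with quantile normalization (-0.04), each array centred on its median (-0.0024), cyclic loess (-0.06) and replicates 1 and 2 only (-0.02). With each array left out in turn, differences ran from -0.33 to 0.02 for Tfrc, -0.0027 to 0.17 for Ftl1, -0.35 to 0.22 for Hamp and -0.06 to 0.14 for Acsl4. The cause was not tested.

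The replicate number as a replicate block gave 1 of the 10 genes at an unadjusted p under 0.05 (Slc40a1, limma, 0.26, SE 0.10, adjusted p = 0.729) and 4 iron handling genes against 2; it changed no call at an adjusted p of 0.05, and over all genes that count was 1302 against 1194. That count of the 10 genes was also 1 without moderated variances (Aco1), without DJ-1 replicates 3 and 4 (Slc40a1) and in replicates 1 and 2 only (Tfrc). Over all 19938 genes the counts in these settings were 1118, 911 and 720. Genes past an adjusted p of 0.05 were 1 in replicates 1 and 2 only (Car3) and 0 to 1 with each array left out (Pramel27 without DJ-1 replicate 3). The iron handling count of 2 was 1 with quantile normalization, cyclic loess, genes above background and robust variances (over all genes 1074, 1064, 781 of 13693 and 1188), 5 in replicates 3 and 4 only (over all genes 1750), and 0 to 4 with each array left out (0 without placebo replicate 3 or DJ-1 replicate 4, 1 without DJ-1 replicate 1 or 2, 4 without placebo replicate 1). The ferroptosis count of 2 was 1 with quantile normalization (Alox12), without DJ-1 replicates 3 and 4 and in replicates 1 and 2 only (Slc7a11 in both). Over all genes the counts there were 1074, 911 and 720. The ferroptosis count was 3 with genes above background, a variance trend over intensity and the replicate block (over all genes 781 of 13693, 1143 and 1302). With each array left out it was 1 to 3 (1 without placebo replicate 2 or 4 or DJ-1 replicate 3 or 4). Over all genes, leaving out each array in turn gave 833 to 1480. Hamp and Tfr2 lie in the background, as does Slc7a11 in replicates 3 and 4 of both groups, and there signal limits any comparison.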

Other observations

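A further 4 probe sets carry the symbol Ftl1 together with 2 microRNA genes and were left out of the comparison by the rule of 1 symbol. Their differences between DJ-1 and placebo hearts were 0.04, 0.09, 0.03 and 0.03, beside 0.07 for the probe set used. In the same order their placebo means were 10.79, 8.37, 10.52 and 11.1, beside 10.52 for the probe set used. In all 5 probe sets placebo replicate 4 was the lowest array of its group.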
